A study of Mus musculus with 2 samples.

Results

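The genes described here encode surface molecules by which cells hold on to other cells and to the matrix. They were chosen by symbol: integrin alpha and beta subunits, the selectins and the selectin ligand gene Selplg, the Icam, Vcam1, Jam, F11r and Esam genes, the numbered cadherins and the numbered tetraspanins. Itga2b, the integrin alpha subunit of platelets, and genes for proteins that bind integrin beta tails were left out. The rule found 86 of the 34745 genes in the tables, with 85 distinct symbols because Itgam names 2 entries. They comprised 18 integrin alpha entries, 9 integrin beta genes, the beta-like gene Itgbl1, 4 genes of selectins and their ligand, 9 genes of immunoglobulin-type adhesion molecules, 23 cadherins, 20 tetraspanins and 2 antisense RNAs of tetraspanin genes.

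RNA was sequenced from BM LSKs (lineage-negative, Sca1+, c-Kit+ cells, which hold the hematopoietic stem and multipotent progenitor cells) of Scl/tTA-BA mice on a C57BL/6 background. Both groups carried the same pair of transgenes: Scl/tTA, which drives the tetracycline transactivator in stem and progenitor cells, and TRE-BA, which carries the BCR/ABL1 fusion under its control. The week-0 group was kept on doxycycline, which holds BA off, and the week-3 group was sampled 3 weeks after doxycycline withdrawal. Each group is 1 library made from the mixed LSKs of 3 mice, which leaves the variation among mice unmeasured, and values are compared between 2 libraries. Ages of the mice are not given in the labels.

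Integrins are heterodimers of an alpha and a beta subunit, and the alpha subunit largely sets which ligand is held: fibronectin, laminins, collagens, or counter-receptors on other cells. Hematopoietic stem and progenitor cells use alpha4beta1 and its ligand VCAM1 to stay in the marrow, and selectins with PSGL-1 (the product of Selplg) to roll on vessel walls. Junctional adhesion molecules and cadherins join like cells to one another, and tetraspanins gather integrins and other receptors into membrane domains. Altered adhesion to marrow stroma is a long-known property of chronic myelogenous leukemia progenitors.

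Reads are whole numbers per gene, and FPKM scales them by the length of the exon model and by the reads of the library, so that levels of different genes can be compared. Reads on genes numbered 6356164 in the week-0 library and 3886695 at week-3. The chosen genes took 0.273% of the reads at week-0 against 0.212% at week-3. Ratios are the log2 of week-3 over week-0 FPKM. Their exact Clopper-Pearson 95% intervals come from the reads and cover counting error alone: copies made by amplification are not separate molecules. The call of higher or lower required at least 10 reads over both libraries, a ratio of at least 2 or at most 0.5, and an interval that did not hold 0 on the log2 scale. This is a rule of size, not a test, since 1 library per group allows none. The genes Bcr and Abl1 had FPKM of 8.93 and 3.00 at week-0 and of 4.25 and 1.79 at week-3. Whether reads of the transgene were counted on them is not given in the sources used here, so they do not check the labels. The authors report that BA itself, measured by qRT-PCR in LSKs, was significantly higher at week-3. The LSK markers Kit, Ly6a (Sca1) and Cd34 were present in both libraries, with FPKM of 16.9, 19.8 and 60.9 at week-0 and of 11.5, 14.8 and 39.9 at week-3.

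Of the 86 entries, 18 had no read in either library, another 17 had fewer than 10 reads in all, and 51 could be compared. Lower at week-3 were 15 of these 51, or 29.4%, and higher were 2, or 3.92%. Over all 13689 genes with as many reads, 14.9% were lower and 10.5% were higher by the same rule. Counts of single families and of marker lists below are also to be read against these shares. The genes and the lists were chosen with earlier results of these data known, so the shares describe them and test nothing. The lower genes were Icam1, F11r, Jam3 and Esam among the immunoglobulin-type molecules, Itga3, Itga9, Itgav and Itgb5 among the integrins, Cdh1, Cdh17 and Cdh24 among the cadherins, and Tspan1, Tspan6, Tspan8 and Tspan9 among the tetraspanins. The higher genes were Selp and Tspan2. The median log2 ratio of the 51 genes was -0.30, and that of all genes was 0.05. Among the genes with at least 100 reads in either library, 6 of 25 chosen genes were lower (24%), against 12.3% of all such genes, and 1 was higher (4%), against 6.53%. When the whole interval had to lie beyond the fold limit, 11 of the 51 were lower (21.6%) and 0 were higher, against 7.25% and 3.82% of all genes.

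**Figure D1:**
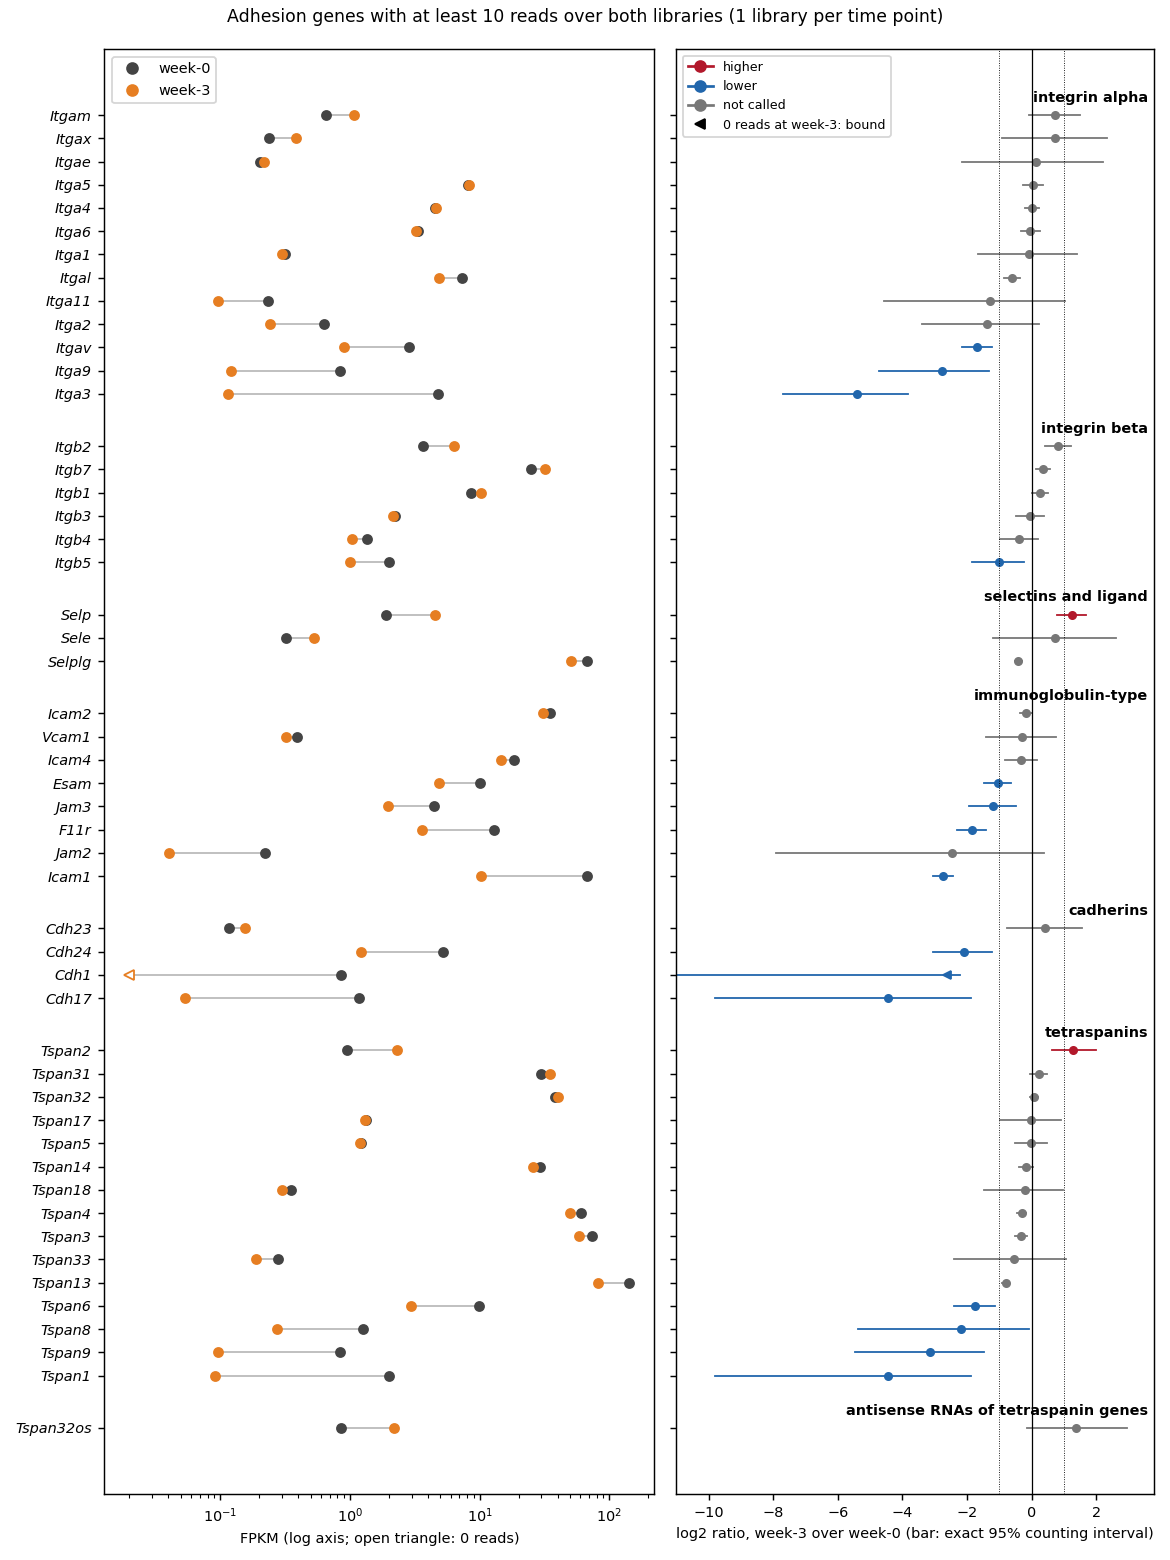
The left panel plots the FPKM (log axis) of adhesion genes with at least 10 reads over both libraries, in the week-0 library (grey) and the week-3 library (orange), and the right panel plots the log2 ratio with its exact 95% counting interval, blue where lower, red where higher and grey where not called. Itga3 and Icam1 stand to the left of the fold limit with their whole intervals, whereas the intervals of Itga4, Itga5 and Itga6 hold 0, and the open triangle marks Cdh1, which had 0 reads at week-3.

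Of the 11 genes that reached an FPKM of 20 in a library, 1 was lower (Icam1) and 0 were higher. Over all 2615 genes at that level, 12.3% were lower and 8.26% were higher, so the count among the 11 was near that of all genes. Of the 15 lower genes, 7 had at most 4 reads at week-3, so the size of their fall is known only within a wide interval, and 8 had more than 10 reads there. Among the 34 genes that were not called, the interval held 0 for 27. It lay below 0 for Itgal, Selplg, Tspan3, Tspan4 and Tspan13, and above 0 for Itgb2 and Itgb7, each time with a ratio short of the fold limit.

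**Figure D2:**
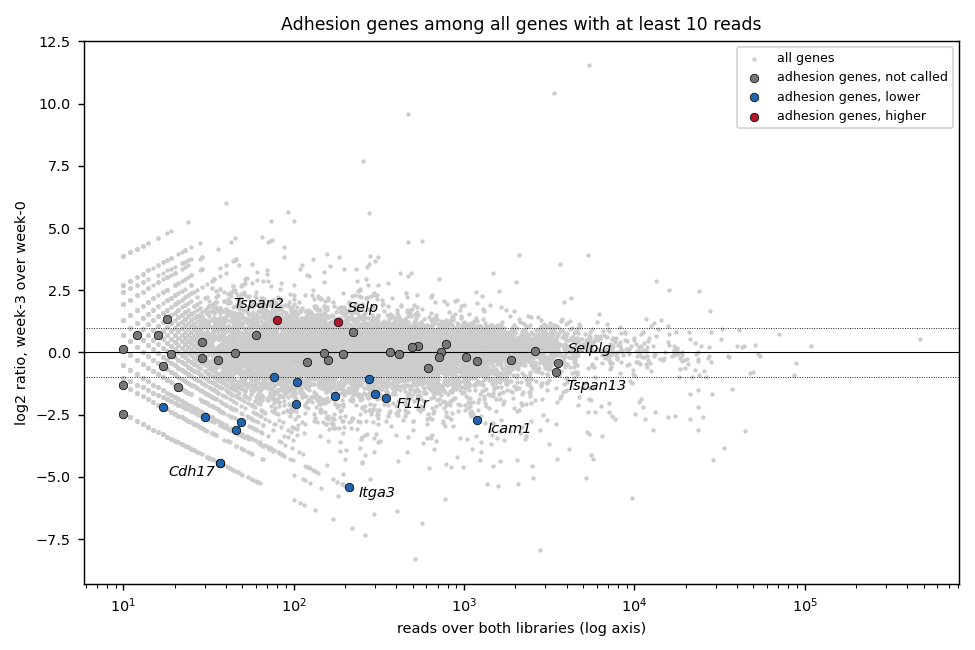
Log2 ratio against the reads over both libraries (log axis) for genes with at least 10 reads (pale grey), with adhesion genes on top; genes at 0 in 1 library are set at 3 reads there, and dotted lines mark the fold limits. Icam1 and Itga3 lie at -2.73 and -5.40, while the deeply read Selplg lies at -0.41.

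Among the receptors that bind leukocyte integrins, Icam1 differed most. Icam1 encodes ICAM-1, the main ligand of the integrin alphaLbeta2 (LFA-1). The gene (ENSMUSG00000037405, chromosome 9 of GRCm38, from 21015960 to 21028797, protein-coding, plus strand) had 1097 reads (FPKM 67.9) at week-0. The week-3 library held 101 reads (FPKM 10.2), 6.64-fold less (log2 ratio -2.73, 95% interval -3.04 to -2.44). Of the 7621 genes with at least 100 reads in either library, Icam1 had the 161st lowest ratio. Icam2, another LFA-1 ligand, had 667 reads at week-0 against 361 at week-3 (FPKM 34.8 and 30.8). Its interval of the log2 ratio ran from -0.36 to 0.01, so no difference was detectable at this depth. Icam4, an adhesion molecule of erythroid cells that starts 576 bases beyond the end of Icam1, had an FPKM of 18.4 at week-0 against 14.8 at week-3 (log2 ratio -0.32, interval -0.83 to 0.17). The low ratio of Icam1 was thus not shared by its neighbour on the chromosome. Icam5, the next gene of the cluster, had no reads. Vcam1, the ligand of alpha4beta1, was scarce, with 24 and 12 reads (FPKM 0.391 and 0.320). Icam1 alone made up 45.5% of the summed FPKM of the immunoglobulin-type genes at week-0 against 15.4% at week-3. Without it the sum was 81.3 at week-0 against 56.4 at week-3.

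The promoter of Icam1 is shown because it is the most deeply read of the lower genes, with those of F11r, another lower gene, and Selp, a higher one, for comparison. The sequences are RefSeq's, on GRCm38.p6, and each covers the 250 bases before a RefSeq transcript start, which can differ by some bases from the gene start in the tables, written from 5′ to 3′ on the plus strand, which is the strand of all 3 genes. Icam1 is at chr9:21015690-21015939, F11r at chr1:171437311-171437560 and Selp at chr1:164115014-164115263. Capitals mark matches to TTCNNNGAA, the core to which STAT factors bind, to GGAANTTCC, a form of the site of NF-kappaB factors, and to TGANTCA, the site of AP-1 factors, where N is any base. Each of these reads the same on both strands, and no matches overlap in these windows.

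Icam1: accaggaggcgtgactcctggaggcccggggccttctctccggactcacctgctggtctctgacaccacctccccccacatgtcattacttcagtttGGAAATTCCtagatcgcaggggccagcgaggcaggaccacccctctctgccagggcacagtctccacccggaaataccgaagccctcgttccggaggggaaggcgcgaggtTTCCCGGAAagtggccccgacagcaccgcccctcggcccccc

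F11r: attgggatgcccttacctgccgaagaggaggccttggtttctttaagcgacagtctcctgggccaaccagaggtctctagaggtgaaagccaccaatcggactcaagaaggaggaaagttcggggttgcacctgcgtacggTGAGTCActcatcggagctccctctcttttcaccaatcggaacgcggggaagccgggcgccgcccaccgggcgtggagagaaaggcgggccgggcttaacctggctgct

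Selp: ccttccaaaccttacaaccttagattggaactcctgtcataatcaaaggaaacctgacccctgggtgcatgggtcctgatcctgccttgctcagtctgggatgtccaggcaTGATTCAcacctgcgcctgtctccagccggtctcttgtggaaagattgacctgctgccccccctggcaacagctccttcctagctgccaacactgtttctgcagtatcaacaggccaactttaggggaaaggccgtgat

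The Icam1 window held GGAANTTCC from 153 to 145 bases and TTCNNNGAA from 42 to 34 bases before the start. TGANTCA stood from 109 to 103 bases before the start of F11r and from 139 to 133 bases before that of Selp. Of all 32851 windows of this length, 7.02% held TTCNNNGAA, 0.813% GGAANTTCC and 6.75% TGANTCA. Windows were found for 11 of the 15 lower genes. Among these 11, TTCNNNGAA stood before Icam1 and Tspan9, GGAANTTCC before Icam1 and TGANTCA before F11r. Of their 15 windows, these were 13.3%, 6.67% and 6.67%. Among 21 members not called, with 23 windows, TTCNNNGAA stood before Sele, and TGANTCA before Itgax and Sele. These matches describe the letters of the windows and are not measured binding.

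The junctional molecules of the same structural type were all lower or had too few reads to tell. F11r (JAM-A, a tight junction molecule also found on platelets and leukocytes; ENSMUSG00000038235, chromosome 1, from 171437535 to 171464603) had 299 reads (FPKM 13.0) at week-0. The week-3 library held 51 reads (FPKM 3.62), a log2 ratio of -1.84 (95% interval -2.30 to -1.41). Jam3 (JAM-C), a ligand of JAM-B, had 82 and 22 reads and a log2 ratio of -1.19 (interval -1.94 to -0.50). Esam, a marker shared by stem cells and endothelium, had 213 and 63 reads (FPKM 10.1 and 4.87). Its log2 ratio of -1.05 (interval -1.48 to -0.64) lay just inside the fold limit. Jam2 had 9 reads at week-0 against 1 at week-3, and its interval held 0. The summed FPKM of these 4 genes was 27.8 at week-0 against 10.5 at week-3. Some of these genes are also expressed in endothelium, and of 8 endothelial markers, 6 could be compared and 3 (Emcn, Flt4 and Stab2) were lower. The summed share of the 8 was 0.00754% of the reads at week-0 against 0.00599% at week-3. That sum is mostly Pecam1, which was not called (log2 ratio 0.25). Pecam1 held 260 of the 479 summed reads at week-0 and 189 of 233 at week-3, so the sum says little of the other markers. The defining genes Kdr and Cldn5 had 4 and 3 reads at week-0 and 0 and 1 at week-3. Cdh5, the endothelial cadherin, had 3 and 0 reads. The part of endothelial RNA in these values was not tested. In bulk RNA, fewer cells of a type cannot be told apart from less RNA per cell, here and in all that follows.

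Of the 13 integrin alpha entries that could be compared, 3 were lower (Itga3, Itga9 and Itgav) and 0 were higher. The lower share was 23.1%, against 14.9% of all genes, and rests on few entries. The intervals of Itga4, Itga5 and Itga6 held 0. Itga4 (the alpha4 of VLA-4) had 452 reads at week-0 against 279 at week-3, with FPKM of 4.56 and 4.60 (log2 ratio 0.01, 95% interval -0.21 to 0.23). Itga5 (the fibronectin receptor alpha5) had 225 and 141 reads (FPKM 8.08 and 8.28; interval -0.28 to 0.35). Itga6, which pairs with beta1 or beta4 to bind laminin, had 262 and 155 reads (FPKM 3.35 and 3.24; interval -0.34 to 0.24). For these 3 genes, counting error alone thus allows a difference of no more than 0.35 on the log2 scale.

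Itga3, the other expressed laminin-binding subunit, was almost absent at week-3. The gene (ENSMUSG00000001507, chromosome 11, from 95044474 to 95076801, minus strand) had 207 reads (FPKM 4.83) at week-0, a level near that of Itga4. The week-3 library held 3 reads (FPKM 0.114), a log2 ratio of -5.40 (95% interval -7.69 to -3.83). Of the 7621 genes with at least 100 reads in either library, it had the 20th lowest ratio. Itgav (alphav, which binds vitronectin and other RGD ligands) had 252 and 48 reads (FPKM 2.87 and 0.895), a log2 ratio of -1.68 (interval -2.16 to -1.23). It overlaps Gm13684, which had 16 and 14 reads on the opposite strand. Itga9, a close relative of Itga4 that binds tenascin and osteopontin, had 45 and 4 reads (log2 ratio -2.78, interval -4.72 to -1.33). Thus in each of these pairs of related subunits, Itga6 and Itga3, Itga5 and Itgav, and Itga4 and Itga9, the interval of the first held 0 and the second was lower at week-3. This grouping was made after the values were seen.

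The collagen-binding subunits Itga1, Itga2, Itga10 and Itga11 had between 2 and 17 reads at week-0, and none was called. Of the leukocyte subunits, Itgal (the alphaL of LFA-1) had 441 and 177 reads (FPKM 7.36 and 4.83). Its log2 ratio of -0.61 (interval -0.87 to -0.35) lay below 0 but short of the fold limit. Itgam (the alphaM of Mac-1, a myeloid marker) had 30 reads in each library, which at these depths is an FPKM of 0.655 and 1.07, and its interval of -0.07 to 1.49 held 0. A second entry of that symbol, an overlapping transcript unit that GENCODE M21 names Gm49368, had 0 and 1 read. Itgax, Itgae and Itgad had at most 8 reads in either library. By FPKM, Itga5, Itgal, Itga4 and Itga6 together made up 68.0% of the alpha subunits at week-0 against 85.6% at week-3, as the plot of family make-up shows.

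**Figure D3:**
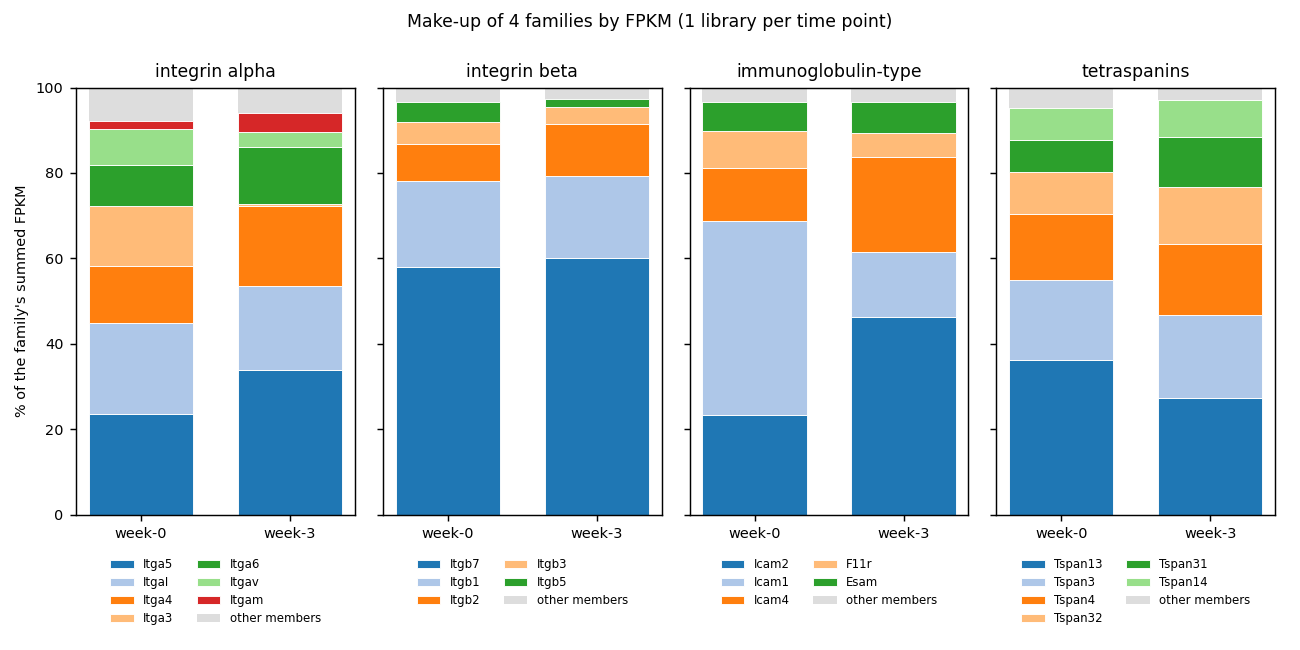
Stacked bars give the share (%) of each gene in the summed FPKM of its family, in the week-0 and the week-3 library, for 4 families; genes under 4% in both libraries are pooled in grey. Itga3 goes from 14.0% to 0.467% of the alpha subunits and Icam1 from 45.5% to 15.4% of the immunoglobulin-type genes, while Itgb7 holds 58.1% and 60.0% of the beta subunits.

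Of the beta subunits, Itgb5 alone was called by this rule. Itgb7, the partner of alpha4 in homing to gut vessels, was the most abundant beta gene, with 441 and 345 reads (FPKM 24.9 and 31.8; log2 ratio 0.36, 95% interval 0.15 to 0.56). Itgb1, the common partner of most alpha subunits, had 309 and 225 reads (FPKM 8.60 and 10.2; log2 ratio 0.25, interval 0.00 to 0.50). Itgb2, the beta subunit of LFA-1 and Mac-1, had 108 and 116 reads (FPKM 3.65 and 6.40). Its log2 ratio of 0.81 (interval 0.42 to 1.20) lay above 0 and short of the fold limit, in contrast to its partner Itgal at -0.61. Itgb2l, a relative of Itgb2, had 0 and 6 reads. Itgb3 had 122 and 72 reads (FPKM 2.22 and 2.15; interval of the log2 ratio -0.49 to 0.38). Its alpha partners are Itgav, which was lower, and Itga2b, which is not among the chosen genes and had an FPKM of 10.7 at week-0 against 20.4 at week-3 (log2 ratio 0.93, interval 0.76 to 1.10). Itgb4 had 81 and 38 reads (log2 ratio -0.38, interval -0.98 to 0.19). Itgb5, which pairs with alphav alone, had 59 and 18 reads (FPKM 2.02 and 1.01). Its ratio lay just inside the fold limit (interval of the log2 ratio -1.85 to -0.22), and it was not called in edgeR's exact test with an assumed biological coefficient of variation of 0.1. The summed FPKM of all alpha entries was 34.4 at week-0 against 24.5 at week-3, and that of the beta genes 42.8 and 53.0.

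Among the selectins and their ligand, Selp was higher at week-3. Selp (P-selectin, stored in platelets and endothelium; ENSMUSG00000026580, chromosome 1, from 164115264 to 164150026) had 74 reads (FPKM 1.90) at week-0. It had 107 reads (FPKM 4.50) at week-3, a log2 ratio of 1.24 (interval 0.80 to 1.69). The call was lost when the whole interval had to lie beyond the fold limit, and in edgeR's exact test with an assumed biological coefficient of variation of 0.4. Sele (E-selectin, an endothelial gene) had 6 reads in each library. Selplg, which encodes the ligand PSGL-1, was among the most abundant of the chosen genes, with 2442 and 1122 reads (FPKM 67.1 and 50.4; log2 ratio -0.41, interval -0.52 to -0.31). Selp is also a gene of megakaryocytes. Of 7 markers of megakaryocytes and platelets, 0 were higher and 2 were lower, among them Ppbp, with 28 and 2 reads. The other 5 were not called. For Pf4, with 137 and 77 reads (log2 ratio -0.12), Gp1ba (-0.97) and Gp1bb (0.78), the interval held 0. For Gp9 (-0.70) and Vwf (-0.98) it lay below 0. Itga2b, the integrin alpha subunit of platelets, had a log2 ratio of 0.93, with its interval above 0. Of 7 mast cell and basophil markers, all 7 were higher, and their summed share went from 0.0141% to 0.384%. The part of either cell type in the level of Selp was not tested.

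The cadherins, calcium-dependent molecules of cell-cell junctions, were nearly silent in LSKs. Of 23 genes, 12 had no read in either library, 7 had fewer than 10 reads in all, and 4 could be compared. Cdh24 (ENSMUSG00000059674, chromosome 14, from 54631992 to 54641364) was the most abundant, with 90 reads (FPKM 5.19) at week-0. It had 13 reads (FPKM 1.23) at week-3 (log2 ratio -2.08, 95% interval -3.05 to -1.24). Cdh1 (E-cadherin, which within the marrow marks erythroid precursors) had 30 reads at week-0 against 0 at week-3. Against the limit that a count of 0 allows, 3 reads, it was at least 6.11-fold lower, a bound that takes the 30 reads as exact. With their counting error, the exact 95% interval of the log2 ratio ended at -2.22. Cdh17 had 36 reads and 1 read (log2 ratio -4.46, interval -9.80 to -1.89), and Cdh23 had 16 and 13 reads. Cdh2 (N-cadherin), much discussed as a niche molecule of stem cells, had 1 and 2 reads. Erythroid markers moved in the same direction as Cdh1. Of 7 such markers, 6 were lower, and their summed share was 0.125% of the reads at week-0 against 0.0103% at week-3. Markers of B cells and plasma cells were lower in 3 of 5 comparable genes, with a summed share of 0.0911% at week-0 against 0.00821% at week-3. Lineage depletion and the lineage-negative gate of the sort are meant to remove such cells, and their part in the ratios of cadherins was not tested.

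The tetraspanins, proteins of 4 membrane spans that organise other receptors, included the gene with the highest level of all those chosen. Tspan13 had 2558 reads (FPKM 142.9) at week-0, and 899 reads (FPKM 82.1) at week-3 (log2 ratio -0.80, 95% interval -0.91 to -0.69), short of the fold limit. Tspan3 (FPKM 73.3 and 58.4) and Tspan4 (FPKM 61.1 and 49.6) had log2 ratios of -0.33 and -0.30, with intervals below 0. Tspan32, a tetraspanin of blood cells, had 1597 and 1027 reads (FPKM 38.5 and 40.5; log2 ratio 0.07, interval -0.04 to 0.19). Tspan31 (FPKM 29.8 and 34.8) overlaps Cdk4, which had 4276 and 2782 reads on the opposite strand, and without strand their reads may be mixed. The TspanC8 genes, whose products escort the protease ADAM10 to the surface, were not called in 4 of 4 comparisons. Tspan14, the main one here, had 461 and 250 reads (FPKM 29.3 and 26.0; interval of the log2 ratio -0.40 to 0.05), and Tspan5 and Tspan17 had log2 ratios of -0.01 each.

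Lower tetraspanins came from the middle and low range of levels. Tspan6 (ENSMUSG00000067377, chromosome X, from 133891068 to 133898429) had 148 reads (FPKM 9.88) at week-0. It had 27 reads (FPKM 2.95) at week-3, a log2 ratio of -1.75 (interval -2.39 to -1.15). Tspan9 had 43 and 3 reads, Tspan1 had 36 reads and 1 read, and Tspan8 had 15 and 2 reads. The intervals of these 3 genes were wide, and that of Tspan8 ended at -0.09. Tspan2 was the tetraspanin that was higher, with 32 reads (FPKM 0.943) at week-0 and 48 reads (FPKM 2.31) at week-3 (log2 ratio 1.29, interval 0.62 to 1.99), a call lost under the same settings as that of Selp. The antisense RNA Tspan2os, which overlaps its start, had 4 reads and 1 read. Tspan32os had 7 and 11 reads, an interval that held 0, and an overlap with the much more abundant Tspan32. The kit is not stated to keep strand, so reads of antisense pairs cannot be told apart.

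The other genes of the adhesion pathway were read from a list of 98 genes, of which 81 could be compared. Lower were 19 (23.5%) and higher were 4 (4.94%), against 14.9% and 10.5% of all genes, which are also the shares to read the counts of the single lists against. Their median log2 ratio was -0.25. Adaptors that link integrin tails to actin and to kinases held 11 of the 19 lower genes. Of the 26 compared, these were 42.3%, against 14.9% of all genes, and 1 was higher (3.85%, against 10.5%), with a median log2 ratio of -0.69. Among the 16 adaptors with at least 100 reads in either library, 5 were lower and 0 were higher, with a median of -0.56. Over all genes of that depth, 12.3% were lower and 6.53% higher. Zyx (zyxin, an actin-bound adaptor of focal adhesions) had 5296 reads (FPKM 92.9) at week-0, and 611 reads (FPKM 17.5) at week-3 (log2 ratio -2.41, 95% interval -2.53 to -2.28). Ptk2b (Pyk2, a kinase related to focal adhesion kinase) had 1643 and 286 reads (log2 ratio -1.81), Tns3 392 and 76 (-1.66), Cytip 913 and 226 (-1.30) and Syk 1235 and 363 (-1.06). The core activators of integrins in blood cells were not called: Fermt3 (kindlin-3) had an FPKM of 123.2 and 101.4 and a log2 ratio of -0.28, and Tln1 (talin) had an FPKM of 26.2 and 19.4 and a log2 ratio of -0.44. Both intervals lay below 0, from -0.39 to -0.17 for Fermt3 and from -0.55 to -0.32 for Tln1.

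None of the 11 comparable genes of the Rap1 switch, which turns integrins on from inside the cell, was called by this rule, and their median log2 ratio was -0.04. Over the 9 with at least 100 reads in either library the median was -0.23, against 0.06 over all such genes. Short of the fold limit, intervals lay below 0 for Apbb1ip, Rap1b, Rasgrp2, Rassf5 and Sipa1, and above 0 for Rapgef3 and Skap2. Tetraspanins without a Tspan name and their partners were likewise not called in 11 of 11 comparisons, with a median of 0.14. Ptgfrn, with 12 and 2 reads, had a log2 ratio of -1.88, beyond the fold limit, but its interval held 0. Among those with over 100 reads, closest to the limit were Cd81, with an FPKM of 135 and 72.5 (log2 ratio -0.90), and Adam10, with 13.2 and 25.5 (log2 ratio 0.95). Of the cadherin partners, Jup (plakoglobin) was lower, with 166 and 31 reads (log2 ratio -1.71). Ctnna1 and Ctnnb1, the alpha- and beta-catenins, were at 0.13 and 0.00. Among the 14 genes for selectin ligands and their enzymes, 2 were higher and 3 lower. Fut7, the fucosyltransferase that makes selectin ligands in leukocytes, had 206 and 310 reads (FPKM 5.92 and 14.6; log2 ratio 1.30, interval 1.04 to 1.56). Emcn (endomucin) had 108 and 19 reads (log2 ratio -1.80). Of the integrin ligands, 3 of 6 comparable genes were lower, among them Spp1 (osteopontin), with 271 and 71 reads and a log2 ratio of -1.22. Of 9 comparable other adhesion receptors, 1 was higher and 1 was lower.

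**Figure D4:**
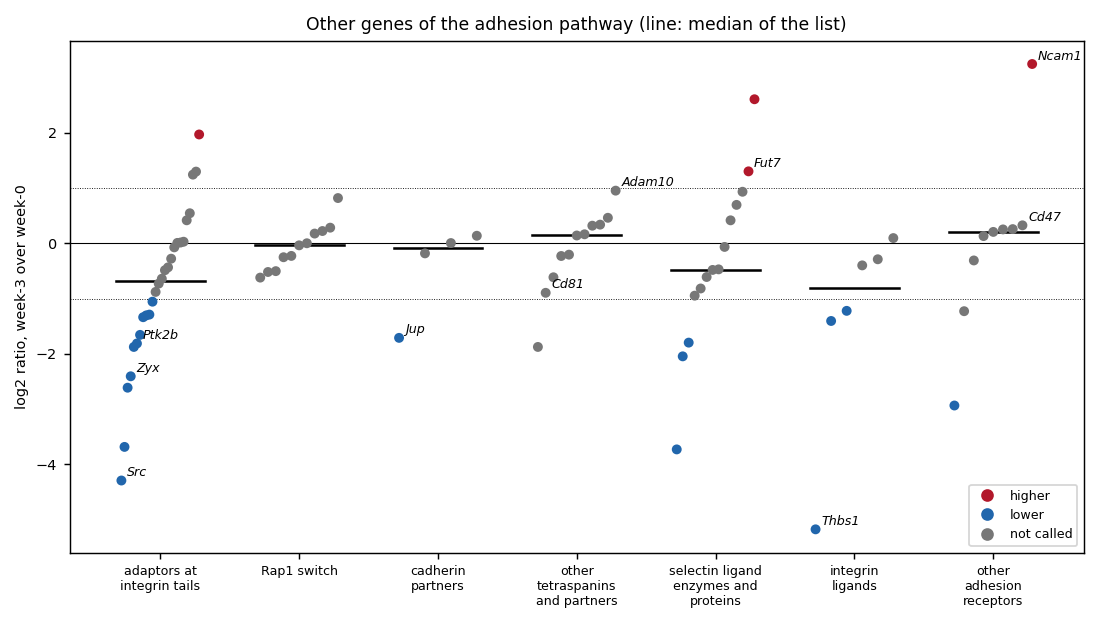
Each point is the log2 ratio of 1 gene of the 7 lists of other adhesion genes with at least 10 reads, blue where lower, red where higher and grey where not called; black lines are the medians of the lists and dotted lines the fold limits. The adaptors at integrin tails have a median of -0.69 and the Rap1 switch a median of -0.04.

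Other myeloid markers also differed between the libraries, beside the mast cell markers given above. Of 8 neutrophil markers, 7 were higher at week-3, and the summed share of the 8 was 0.255% of the reads at week-0 against 1.04% at week-3. Most of that sum was Elane and Mpo. Elane had 5454 and Mpo 9443 of the 16219 summed reads at week-0, and 18391 and 18486 of the 40350 at week-3. Ly6g, the defining marker of mature neutrophils, had 5 reads in each library. For monocytes, macrophages and dendritic cells, 1 of 4 comparable markers was higher and 1 was lower, with a summed share of 0.0225% at week-0 against 0.0894% at week-3. That sum was mostly Ly6c2, the higher marker, which held 1118 of the 1428 summed reads at week-0 and 3148 of 3475 at week-3. Of 6 stroma markers, Cxcl12 was lower, with 27 and 2 reads, and the summed share was 0.00810% and 0.00581%. Pdgfrb, which was not called, held 465 of the 515 summed stroma reads at week-0 and 220 of 226 at week-3. T and NK cell markers took 0.000330% and 0.000154% of the reads, with at most 7 reads for any gene. Of 8 LSK markers, Flt3, Procr and Mecom were lower and Slamf1, with 10 and 15 reads, was higher, and the summed share of the 8 was 0.198% and 0.0899%. Flt3 alone held 6177 of the 12594 summed reads at week-0 and 934 of 3495 at week-3. Itgb2, Itgam and Itgb7 are genes of myeloid or mast cells as well as of progenitors, and the part of such cells, which the same lineage depletion and gate are meant to remove when they carry lineage markers, in their ratios was not tested.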

How the data were processed

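LSKs were sorted from bone marrow, and SMARTer cDNA of 1 library per group was sequenced in paired ends. The authors trimmed reads and aligned them with TopHat2 2.0.9 to GRCm38 (mm10). Per gene, the authors deposited counts, as whole reads without normalization, and FPKM, scaled by exon length and library reads. The ratio of totals was 1.6354, and FPKM per read differed by the same factor. The counting tool and annotation release are not given in the sources used here. Coordinates are those of the tables. Strand and gene type come from GENCODE M21, which held all 86 entries, 63 of them with the same coordinates.

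Ratios, exact intervals and calls were computed over all genes in Python 3.11.15 with scipy 1.17.1. A gene at 0 in 1 library was set at 3 reads there, which gives a bound. The procedure was tested on simulated data. The simulated counts held counting error alone, so that test does not cover variation among mice or from amplification. Alternatives used scaling by TMM (edgeR 4.0.16) or median-of-ratios (DESeq2 1.42.0), other read minimums and fold limits, pseudocounts, and edgeR's exact test with an assumed variation.

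Members and lists were chosen with earlier results of these data known. Text names called members with at least 50 reads, the 4 highest of each family and a fixed set, in all 36 symbols. The other called members and Itga2b were added after their values were seen, as were the members given to complete a family. Of the adhesion list, called genes with at least 100 reads are named, and others as reference points, chosen after their values were seen. Results for 1 member and 1 marker are not reported here, and that member is not drawn.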

Additional observations from a re-analysis of the deposited data

How the results depend on the processing

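Scaling shifted every log2 ratio by -0.11 with TMM and by -0.09 with median-of-ratios, and moved the median of all genes from 0.05 to -0.07 and -0.04. The same 15 lower and 2 higher members were called under both. Of all called genes, 58.6% were lower in the main scaling, 66.7% with TMM and 65.5% with median-of-ratios. With a fold limit of 1.5, 2797 genes were higher and 2876 lower, so that 50.7% of the calls were lower, and without a minimum of reads the share was 54.4%. When the whole interval had to lie beyond the fold limit, 523 genes were higher and 993 lower, with 0 members higher and 11 lower. With an assumed biological coefficient of variation of 0.4 in edgeR's exact test, 52 genes were higher and 195 lower at an adjusted p under 0.05, with 0 members higher and 2 lower, Cdh1 and Itga3. With 0.1, 13 members were lower, without Itgb5 and Tspan8, and 2 were higher. The median of the members ran from -0.41 to -0.17 over its alternatives. None of the called members named by the rule changed sign under scaling or pseudocounts. With a pseudocount of 1 FPKM, the log2 ratio was -2.39 for Itga3, -1.05 for Cdh17, -1.03 for Itgav and -0.89 for Cdh1. No paired analysis was possible because each group has 1 library, and for the same reason no replicate could be left out. Genes with few reads at week-3 are known only within their intervals.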
